A study of Mus musculus with 12 samples.

Results

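ATTAAA is the most common variant of the canonical polyadenylation signal AATAAA, and the sites described here are those where it marks a poly(A) site that lies upstream of another one. They were chosen from a catalogue of poly(A) site clusters by 3 criteria. The listed hexamer was ATTAAA, its listed distance from the cluster was 15 to 30 nt, and another cluster of the same strand began within 2000 nt downstream, measured between cluster edges in the direction of transcription. Of 145099 clusters outside the mitochondrial genome, 8896 met the rule, which was 6.13% (95% Wilson interval 6.01 to 6.26%). They are called upstream ATTAAA sites below, and the nearest cluster downstream of each is called its downstream site.

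The catalogue came from 12 libraries of mouse embryonic stem cells, derived from the V6.5 line and carrying a conditional knockout (CKO) of Exosc3, a core subunit of the RNA exosome. All 6 groups of 2 libraries carried this knockout. In 3 groups doxycycline at 0.1 μg/ml was kept on, which the labels mark Exosc3+, and in 3 groups it was withdrawn, which they mark Exosc3-. A group of each kind was collected after 3 days, and the other 4 groups after 2 days, 8 hours after nucleofection with an antisense morpholino (AMO) at 15 μM, either U1 AMO, directed at U1 snRNP, or Scr AMO. The labels speak of CKO clones without giving their number or which clone a library came from. 2P-seq, which starts sequencing at the poly(A) tail, gave the 3' ends of polyadenylated RNA.

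The catalogue had 7 columns and 0 of them held a value per library. Levels of sites in the 6 groups, read depth per library and the marker genes of the cell type were therefore not analysed here. The values below describe where sites lie in mm9 and which signal is listed for them, with no library replicates behind them. Intervals over sites cover counting error only and treat neighbouring sites as independent, which they are not. Sets of sites were compared by their difference on each of the 19 autosomes, with a 2-sided permutation test that flips the signs of these differences. Its p-values tell whether a difference was shared by the autosomes and say nothing about other cultures.

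A polyadenylation signal is read in the nascent RNA by the cleavage and polyadenylation specificity factor, whose subunits Cpsf4 and Wdr33 contact the hexamer, and the RNA is cut a short way downstream of it. AATAAA is bound best and most variants less well. Where a transcript holds several sites in a row, use of an upstream one gives a shorter RNA, either a shorter 3' untranslated region or a truncated message when the site lies in an intron. U1 snRNP is known to protect nascent transcripts from such early ends.

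The signals that the results turn on are the ones listed at the upstream sites and most often at their downstream sites. They are given as the catalogue lists them, in DNA letters from 5' to 3', with capitals for each base that differs from the canonical signal.
Canonical signal: aataaa
Variant of the upstream sites: aTtaaa
Variant with T at base 1: Tataaa
Variant with G at base 2: aGtaaa
Variant with G at base 3: aaGaaa
Variant with C at base 5: aataCa
Variant with T at base 5: aataTa
Variant with C at base 1: Cataaa
Variant with G at base 1: Gataaa
Variant with G at base 4: aatGaa

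An upstream position was more common for ATTAAA than for the canonical signal and less common than for its other variants. Of 18655 ATTAAA sites at 15 to 30 nt, 8896 had a downstream site, or 47.7% (interval 46.97 to 48.4%). The same rule applied to AATAAA gave 18849 of 51959 sites, or 36.3% (interval 35.9 to 36.7%). Of all 145099 clusters, with any listed hexamer or none and at any listed distance, 72191 had a downstream site, or 49.8%. The ATTAAA share thus lay slightly below that of all clusters, and the AATAAA share lay further below it. Over autosomes the shares were 47.8% ± 2.08 for ATTAAA and 36.4% ± 1.86 for AATAAA (SD, n = 19). The lowest, median and highest autosome stood at 44.2%, 47.8% and 51.8% for ATTAAA, and at 31.96%, 35.9% and 39.8% for AATAAA, so no autosome of one signal reached into the range of the other. All 19 autosomes had the higher share for ATTAAA, by 11.5 percentage points ± 2.11 (adjusted p = 2e-05, permutation test). The difference was 20.4 points when each run of neighbouring sites counted once through its most downstream site of each signal, which by construction drops sites followed by another of the same signal, and 12.0 through the most upstream one. The other settings gave 10.0 to 12.6 points. On the X chromosome, which was not among those tested, 46.7% of 467 ATTAAA sites (interval 42.2 to 51.2%) and 34.8% of 1703 AATAAA sites (interval 32.6 to 37.1%) had one.

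**Figure D1:**
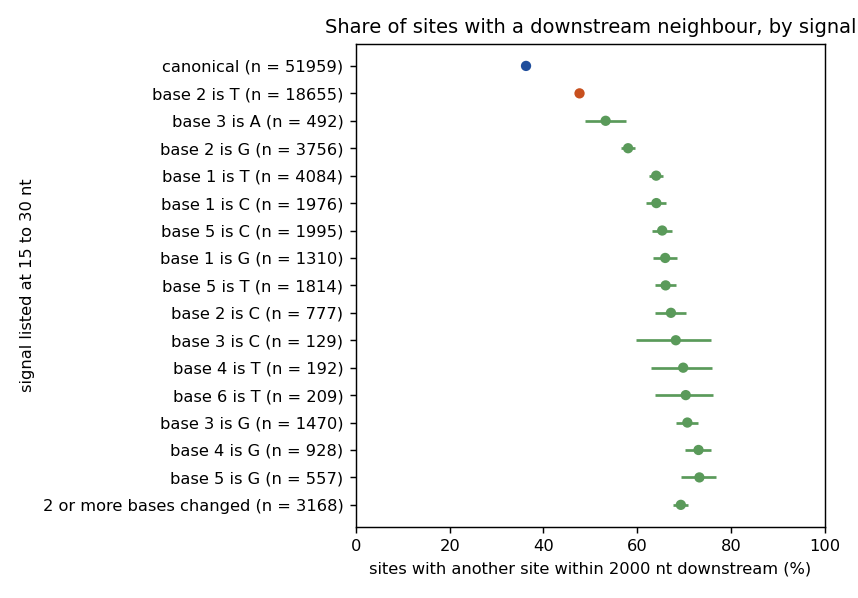
Share of sites (x axis, %) with another site of the same strand within 2000 nt downstream, for each signal listed at 15 to 30 nt (y axis, named by the base that differs from the canonical signal), with bars for 95% Wilson intervals. The canonical signal stands lowest at 36.3% and the variant with T at base 2 next at 47.7%, and the 14 other listed variants with 1 changed base lie between 53.3% and 73.2%.

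The catalogue lists 15 hexamers that differ from AATAAA at 1 base, and the 14 of them other than ATTAAA each had a higher share with a downstream site than ATTAAA. The hexamer of 6 A stood nearest with 53.3% of 492 sites (interval 48.8 to 57.6%), a lower bound just above the 48.4% of ATTAAA. The variant with G at base 2 reached 58.0% of 3756 sites (interval 56.5 to 59.6%). The highest share, 73.2% of 557 sites (interval 69.4 to 76.8%), belonged to the variant with G at base 5. Hexamers with 2 or more changed bases together reached 69.3% of 3168 sites (interval 67.7 to 70.9%). This order is a description and was not tested hexamer by hexamer.

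The site downstream of an upstream ATTAAA site most often carried the canonical signal. AATAAA was listed for 3715 of the 8896 downstream sites, or 41.8% (interval 40.7 to 42.8%), and ATTAAA for 2133, or 23.98% (interval 23.1 to 24.9%). Another hexamer was listed for 2406, or 27.0% (interval 26.1 to 27.98%), and 642 had none, or 7.22% (interval 6.70 to 7.77%). AATAAA also led downstream of sites in general. For all 72191 sites with a downstream site, it was listed downstream for 38.6% (interval 38.2 to 39.0%). There ATTAAA was listed for 15.7%, another hexamer for 33.1% and none for 12.6%. At gaps over 100 nt the AATAAA share over all such sites was 40.9%. In all, 34 hexamers were listed at downstream sites, among them the 15 in the catalogue that differ from AATAAA at 1 base. The 14 of these other than ATTAAA accounted for 1929 downstream sites. The remaining 477 had a hexamer with 2 or more bases changed.

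Among these other signals the variant with T at base 1, TATAAA, led with 446 downstream sites (5.01%). The variant with G at base 2 followed with 311 (3.50%) and that with G at base 3 with 213 (2.39%). Changes at base 5 were next, with 172 sites for C and 165 for T, and then 155 sites with C and 119 with G at base 1 and 91 with G at base 4. These signals differed in where they lay. The variant with G at base 2 was at 15 to 30 nt at 85.2% of its downstream sites and that with C at base 1 at 81.9%, close to the 87.6% of AATAAA. The variant with G at base 3 was in that window at only 41.3%, with a median distance of 30 nt against 21 nt for AATAAA.

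Most downstream sites were near. The median gap was 339.5 nt (quartiles 115 and 860 nt), and 1985 upstream ATTAAA sites (22.3%, interval 21.5 to 23.2%) had their downstream site within 100 nt. Per nt of gap there were 35.6 pairs at 26 to 50 nt, 20.2 at 51 to 100 nt, 13.4 at 101 to 200 nt, 6.68 at 201 to 500 nt and 1.83 at 1001 to 2000 nt. Gaps up to 25 nt were rare, with 84 pairs or 3.36 per nt, and the count stepped from 20 at a gap of 25 nt to 41 at 26 nt. The sources used here do not give the rule that joined read ends into clusters, and its part in this step was not tested.

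The rule's limit fell where pairs were sparse. The upstream ATTAAA site just inside it, on the minus strand of chromosome 10 at position 94822008 (mm9), was 1 nt wide and had an AATAAA site 1998 nt downstream. The ATTAAA site just outside it, on the minus strand of chromosome 2 from 103618288 to 103618303, had its nearest AATAAA site 2002 nt away. At the edges of the distance window there were 88 members at 15 nt and 144 at 30 nt, and ATTAAA sites with a downstream site numbered 40 at 14 nt and 107 at 31 nt.

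**Figure D2:**
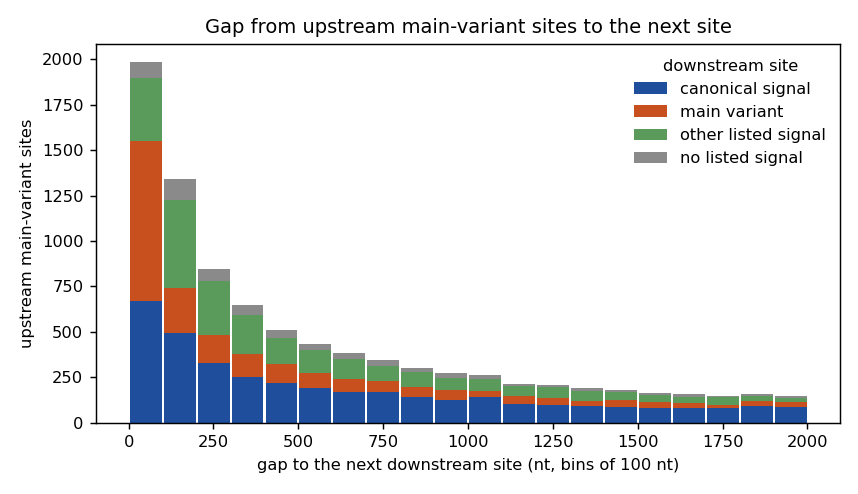
Number of upstream ATTAAA sites (y axis) by the gap in nt to the next site downstream (x axis, bins of 100 nt), stacked by the signal listed at that downstream site. The first bin holds 1985 sites and is the only one where the same variant is the largest group.

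The gap and the downstream signal varied together. Within 50 nt, 581 of 974 downstream sites were listed with ATTAAA again (59.7%, interval 56.5 to 62.7%) and 300 with AATAAA (30.8%, interval 27.98 to 33.8%). At 101 to 200 nt the ATTAAA share was 18.3% (interval 16.3 to 20.4%) and it was 16.9% at 1001 to 2000 nt (interval 15.2 to 18.7%). AATAAA went the other way, from 36.8% at 101 to 200 nt (interval 34.3 to 39.5%) through 39.97% and 46.3% to 51.8% at 1001 to 2000 nt (interval 49.5 to 54.1%). The share of other listed hexamers went over the same range from 36.2% (interval 33.6 to 38.8%) to 24.3% (interval 22.4 to 26.3%). The share with no hexamer was 8.72% and 6.99% at those ends, with overlapping intervals.

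Close pairs can be listed with one and the same hexamer copy, since listed distances ran up to 100 nt. A pair was counted as able to share it when the difference of both listed distances lay between the gap and the gap plus both widths. Within 50 nt, 416 of the 581 ATTAAA downstream sites could share the hexamer of the upstream site (71.6%, interval 67.8 to 75.1%), and at 51 to 100 nt 117 of 300 could (39.0%, interval 33.7 to 44.6%). The downstream ATTAAA had a median distance of 67 nt in the first range. Beyond 100 nt its median distance was 22 nt, and 1119 of 1252 such sites (89.4%, interval 87.5 to 90.97%) had it at 15 to 30 nt. For this reason signals were compared at gaps over 100 nt, which 6911 upstream ATTAAA sites and 15217 upstream AATAAA sites had.

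At gaps over 100 nt the downstream site of an upstream ATTAAA site had AATAAA less often than that of an upstream AATAAA site. The shares over autosomes were 44.1% ± 2.19 after ATTAAA, with 38.8%, 45.2% and 48.3% as lowest, median and highest, and 48.5% ± 2.92 after AATAAA, with 41.4%, 49.0% and 53.7% (SD, n = 19). The ranges overlapped, but within an autosome the share after ATTAAA was lower on 18 of 19. The difference was -4.40 percentage points ± 2.48 (adjusted p = 3.5e-05, permutation test). It was -11.1 points over all gaps, which include shared hexamers. It turned to 5.10 when only the most downstream site of each class per run was kept. By its construction, that choice drops upstream AATAAA sites that have another such site further down the run. With the most upstream site of each run the difference was -3.90. The shares were level at the longest gaps. At 101 to 200 nt they were 36.8% after ATTAAA and 43.2% after AATAAA, and at 501 to 1000 nt 46.3% and 51.7%. At 1001 to 2000 nt they were 51.8% (interval 49.5 to 54.1%) and 52.3% (interval 50.9 to 53.8%). Gap ranges were not compared over autosomes.

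Other hexamers made up more of the downstream sites after ATTAAA, with 29.9% ± 2.24 against 26.7% ± 2.02 after AATAAA (SD, n = 19). Autosomes ran from 27.0% through a median of 30.2% to 34.6% after ATTAAA and from 23.1% through 26.3% to 30.7% after AATAAA, so the ranges overlapped. The difference was 3.18 percentage points ± 3.04, on 17 of 19 (adjusted p = 0.00024, permutation test, chosen after the values had been seen). For ATTAAA and for no listed hexamer the difference did not pass the threshold. ATTAAA was listed downstream for 18.1% ± 1.54 after ATTAAA and 17.4% ± 1.44 after AATAAA (SD, n = 19), a difference of 0.693 percentage points ± 2.04 (adjusted p = 0.168, permutation test). Single autosomes ran from -2.82 to 4.81 points. It was 8.74 points over all gaps (adjusted p = 1.4e-05, permutation test). It was -7.53 when runs were counted once through their most downstream site of each class. That choice drops upstream ATTAAA sites that have another upstream ATTAAA site further down the run. Sites with no hexamer made up 7.93% ± 2.42 and 7.40% ± 1.70 (difference 0.530 points ± 2.01, autosomes from -3.79 to 4.26, adjusted p = 0.265, permutation test).

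**Figure D3:**
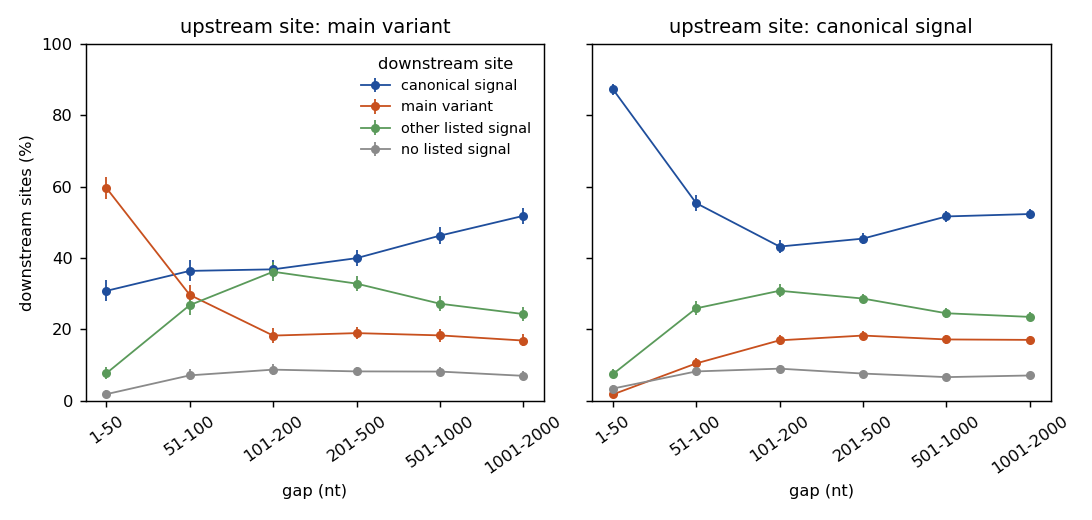
Share of downstream sites (y axis, %) with each listed signal by gap to the upstream site (x axis, nt), for upstream sites with the main variant ATTAAA (left) and the canonical signal AATAAA (right), with bars for 95% Wilson intervals. Up to 50 nt each signal is followed mostly by itself, at 59.7% and 87.4%, and beyond 100 nt the canonical signal leads in both panels, by the least at 101 to 200 nt after the main variant (36.8% against 36.2% for other listed signals).

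Upstream sites with the other 14 listed hexamers that differ at 1 base were followed by AATAAA less often still. At gaps over 100 nt their share was 39.7% ± 2.84 over autosomes (SD, n = 19) against the 44.1% after ATTAAA. The difference was 4.36 percentage points ± 3.48 (adjusted p = 0.00027, permutation test), with the higher share after ATTAAA on 17 of 19 autosomes. This comparison was chosen after the values had been seen. The variants with G at base 2 and with C at base 5 were nearest to ATTAAA, with 42.0% (interval 39.6 to 44.4%) and 41.8% (interval 38.7 to 45.0%). Their intervals reached that of ATTAAA, 42.9 to 45.3%. So did those of the variants with T at base 1 (39.0 to 43.6%) and with C at base 1 (37.2 to 43.6%). The same held for C at base 2 (35.4 to 45.2%) and C at base 3 (25.5 to 47.4%).

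In pairs of neighbours with both signals, ATTAAA came first a little more often than AATAAA. Adjacent pairs with both hexamers at 15 to 30 nt and a gap of 101 to 2000 nt numbered 2667 with ATTAAA upstream and 2283 with AATAAA upstream, so ATTAAA was first in 53.9% (interval 52.5 to 55.3%). Over autosomes the share was 54.0% ± 3.16 (SD, n = 19), from 48.8% through a median of 53.5% to 60.2%. It lay above 50% on 17 autosomes, at 50% on 1 and below on 1, with a mean excess of 4.01 percentage points (adjusted p = 4.67e-05, permutation test). The excess was 2.54 points at gaps up to 1000 nt, 2.59 with hexamers at 18 to 25 nt and 6.96 over all gaps.

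The order varied with the gap, though gap ranges were not tested against each other. At 1001 to 2000 nt, 855 pairs had ATTAAA first and 641 AATAAA (57.2%, interval 54.6 to 59.6%), and at 501 to 1000 nt 701 and 595 (54.1%, interval 51.4 to 56.8%). At 201 to 500 nt the counts were level, 676 and 668 (50.3%, interval 47.6 to 52.97%). The imbalance was largest in the closest pairs, with 258 against 18 within 50 nt (93.5%, interval 89.9 to 95.8%) and 330 against 169 at 51 to 100 nt (66.1%, interval 61.9 to 70.1%). In these close ranges an ATTAAA site just downstream of an AATAAA site is within reach of that AATAAA. Upstream AATAAA sites had 31 downstream sites listed with ATTAAA within 50 nt and 1538 with AATAAA, of which 958 could share the upstream copy. The sources used here do not give the order in which hexamers were searched, and its part in the close pairs was not tested.

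The sites on either side of an upstream ATTAAA site differed in the same direction. Of the 8896 sites, 5527 also had a neighbour within 2000 nt upstream, and 3341 had both neighbours at gaps over 100 nt. Among the latter, the downstream neighbour had AATAAA in 42.3% ± 3.36 and the upstream neighbour in 32.0% ± 4.28 (SD over 19 autosomes). The lowest, median and highest autosome were 36.0%, 42.9% and 47.5% downstream, and 25.4%, 31.4% and 42.95% upstream. The downstream share was higher on 19 of 19, by 10.3 percentage points ± 5.04 (adjusted p = 2e-05, permutation test). The sides differ by construction, since the upstream neighbour always has a site downstream of it, while the downstream neighbour can be the last one. Of all 3924 downstream sites at gaps over 100 nt that were followed by another site, 34.9% had AATAAA (interval 33.5 to 36.4%). How much of the difference comes from this was not tested. AATAAA on both sides was found for 501 of them (15.0%, interval 13.8 to 16.2%) and ATTAAA on both sides, so that 3 sites in a row were listed with it, for 103 (3.08%, interval 2.55 to 3.73%).

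**Figure D4:**
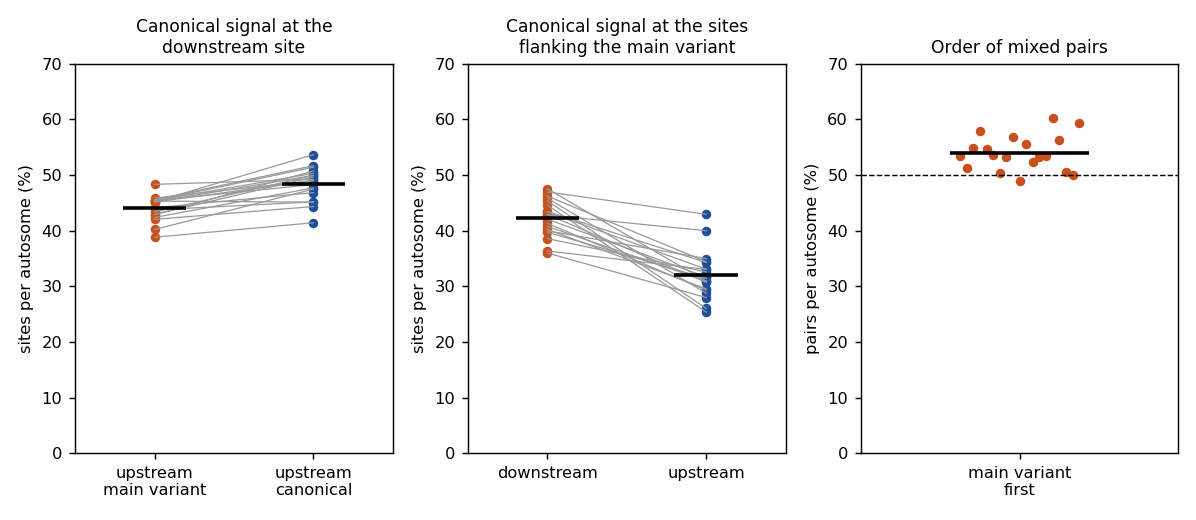
Shares per autosome (y axes, %), a point for each of 19 autosomes and black lines for their means, at gaps over 100 nt. The canonical signal at the downstream site is at 44.1% after the main variant and 48.5% after the canonical signal (left), at 42.3% downstream and 32.0% upstream of the main variant (middle), and the main variant comes first in 54.0% of mixed pairs, with the dashed line at 50% (right).

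Whether the downstream site was the last one made a large difference to its signal. A run was taken as sites with gaps of at most 2000 nt. At gaps over 100 nt, AATAAA was listed for 1676 of the 2987 downstream sites that ended their run (56.1%, interval 54.3 to 57.9%) and for 1371 of the 3924 that were followed by another site (34.9%, interval 33.5 to 36.4%). The difference over autosomes was 21.2 percentage points ± 5.55, on 19 of 19 (adjusted p = 1.5e-05, permutation test, chosen after the values had been seen). ATTAAA was listed for 19.1% (interval 17.8 to 20.6%) and 17.3% (interval 16.2 to 18.5%) of the same sites, with overlapping intervals. The lower listings at run ends were other hexamers, with 20.2% (interval 18.8 to 21.7%) against 37.1% (interval 35.6 to 38.7%), and no hexamer, with 4.55% (interval 3.86 to 5.36%) against 10.6% (interval 9.68 to 11.6%). For upstream AATAAA sites the AATAAA shares were 58.7% (interval 57.6 to 59.8%) and 39.2% (interval 38.1 to 40.3%).

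The gap itself was slightly shorter after ATTAAA and longer before AATAAA. Beyond 100 nt the median gap was 523 nt for upstream ATTAAA and 566 nt for upstream AATAAA sites. The mean log2 gap differed by -0.085 ± 0.093 (SD, n = 19; adjusted p = 0.00125, permutation test), with 15 of 19 autosomes lower after ATTAAA. On the minus strand alone it was -0.068 (adjusted p = 0.0562, permutation test), and it ran from -0.048 with a limit of 1000 nt to -0.19 with 5000 nt. Within upstream ATTAAA sites the median gap was 621 nt where the downstream site had AATAAA, 502.5 nt where it had ATTAAA, 487 nt where it had none and 423.5 nt where it had another hexamer. The mean log2 gap was higher before AATAAA than before all other listings by 0.30 ± 0.12, on 19 of 19 (adjusted p = 2e-05, permutation test). That difference was 0.18 with a limit of 1000 nt and 0.51 over all gaps. Upstream AATAAA sites also had their longest median gap before AATAAA. Beyond 100 nt it was 621 nt, the same as for upstream ATTAAA sites. Before ATTAAA, none and another hexamer their medians were 551, 508.5 and 488 nt. The shorter median gap after ATTAAA was thus seen only before these other listings.

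Cluster width, which the rule did not use, was larger for upstream ATTAAA sites than for ATTAAA sites without a downstream site. The median was 11 nt (quartiles 5 and 23 nt) against 7 nt (quartiles 2 and 12 nt), and 7.77% against 13.9% were 1 nt wide. The mean log2 width was 3.34 ± 0.086 and 2.54 ± 0.057 over autosomes, with ranges of 3.20 to 3.48 and 2.45 to 2.61 that did not overlap. The difference was 0.80 ± 0.091, on 19 of 19 (adjusted p = 2e-05, permutation test). The canonical signal showed the same order, with a median of 15 nt for upstream AATAAA sites and 8 nt for the 33110 AATAAA sites without a downstream site. Against upstream AATAAA sites, upstream ATTAAA sites were lower by 0.30 ± 0.11 in mean log2 width on 19 of 19 autosomes (adjusted p = 2e-05, permutation test). A cluster can be wider because more reads fell in it. No read count was used here, so the part of read number was not tested.

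Within a pair, the site with the canonical signal was on average the wider one. Where the downstream site had AATAAA, it was wider in 2047 pairs and the upstream ATTAAA site in 1493, and median widths were 13 and 10 nt. Where it had any other listing, the upstream ATTAAA site was the wider one on average. Its median was 12 nt against 10 nt for a downstream ATTAAA, 13 against 9 nt for another hexamer and 15 against 10 nt for none. The mean log2 width of the ATTAAA site minus that of its downstream site was -0.34 ± 0.14 before AATAAA and 0.46 ± 0.12 before other listings (SD, n = 19), each of the same sign on 19 of 19. These differed by -0.80 ± 0.20 (adjusted p = 1.5e-05, permutation test, chosen after the values had been seen). Over all downstream sites the difference was 0.12 ± 0.089 (adjusted p = 0.000154, permutation test), and 0.032 without clusters of 1 nt (adjusted p = 0.162, permutation test).

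**Figure D5:**
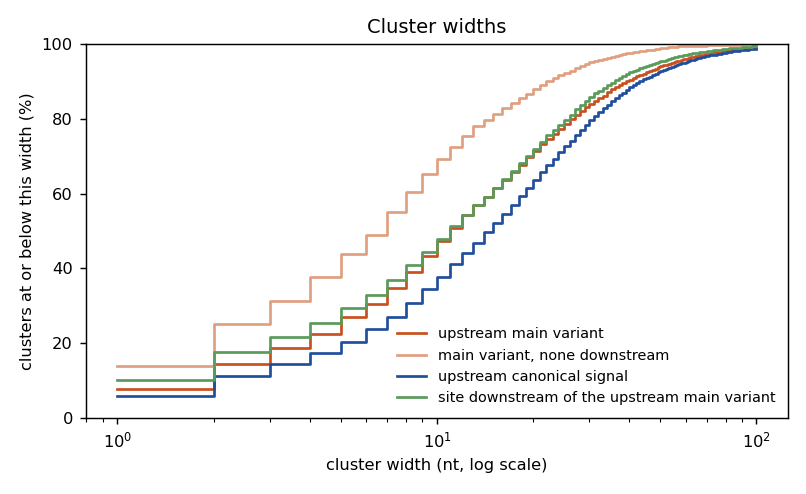
Share of clusters (y axis, %) at or below each width (x axis, nt, log scale) for upstream ATTAAA sites (upstream main variant), ATTAAA sites with none downstream, upstream AATAAA sites (upstream canonical signal) and the sites downstream of upstream ATTAAA sites. ATTAAA sites with none downstream are narrowest, with a median of 7 nt, and upstream AATAAA sites widest, with 15 nt.

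Upstream ATTAAA sites were also denser in other neighbours. A site within 2000 nt upstream was present for 62.0% ± 2.65 of them and for 37.2% ± 2.38 of ATTAAA sites without a downstream site, with ranges of 55.8 to 67.6% and 31.4 to 41.7%. All 19 autosomes shared this direction, and the difference was 24.8 percentage points ± 3.13 (adjusted p = 2e-05, permutation test). Counting each run once gave 22.0 points through its most downstream site of each set and 14.6 through its most upstream one. The latter choice by construction drops upstream ATTAAA sites that are preceded by another in the run. A cluster of the opposite strand lay within 1000 nt for 14.3% ± 3.37 and 10.4% ± 2.39, a difference of 3.90 points ± 2.14 on 19 of 19 (adjusted p = 2e-05, permutation test) that was 1.70 within 200 nt. Clusters of the opposite strand overlapped 155 of the 8896 (1.74%, interval 1.49 to 2.04%) and 93 of the 9759 others (0.953%, interval 0.779 to 1.17%).

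The placement of the hexamer hardly differed. The listed distance was most often 19 nt in both sets, with a median of 21 nt and quartiles of 19 and 24 nt. Means over autosomes were 21.7 nt ± 0.166 for upstream ATTAAA sites and 21.6 nt ± 0.115 for those without a downstream site. The difference of 0.112 nt ± 0.153 had an adjusted p of 0.00837 in the permutation test and was above 0 on 15 of 19. It did not pass the threshold with a limit of 5000 nt, with either choice of 1 site per run or on the minus strand alone (values in the closing section). Among the 8896 sites the distance was unrelated to the gap in rank (Spearman's rho -0.0094), while wider clusters had somewhat shorter gaps (rho -0.19). Both are descriptions across sites that can share a run.

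The 8896 sites fell into 7017 runs, of which 5620 held 1 of them and 1397 held 2 or more. The median run had 4 sites, 1736 runs were pairs, and 1788 of the sites (20.1%) lay in runs of 10 or more. A downstream neighbourhood with a single site was found for 4219 of the sites (47.4%, interval 46.4 to 48.5%), and 1022 (11.5%, interval 10.8 to 12.2%) had 5 or more within 2000 nt. An upstream ATTAAA site opened its run in 3369 cases (37.9%), and 1418 were directly followed by another ATTAAA site at 15 to 30 nt. Of the 7017 runs, 54.5% ended in AATAAA (interval 53.4 to 55.7%), 19.8% in ATTAAA (interval 18.9 to 20.7%) and 5.00% in a site with no hexamer (interval 4.52 to 5.54%). Runs without an upstream ATTAAA site were not set beside these, so whether the values are particular to these runs was not tested.

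Single pairs show the range of arrangements. On chromosome 1 (plus strand), an ATTAAA site from 36585048 to 36585051 with its hexamer at 22 nt was separated by 1 nt from a 50 nt wide cluster from 36585053 to 36585102 whose ATTAAA was listed at 18 nt. On the minus strand of chromosome 14, a site from 58142435 to 58142445 was 1 nt from a 64 nt wide AATAAA cluster from 58142370 to 58142433. On the plus strand of chromosome 16, a site from 16891020 to 16891024 lay 1990 nt before the next ATTAAA site, 94 nt wide, from 16893015 to 16893108. On the plus strand of chromosome 9, a site from 64025477 to 64025532 was 1 nt from a cluster with no hexamer, 79 nt wide. Also there, a site from 51875852 to 51875859 lay 1995 nt before a cluster with none.

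The pairs with the smallest and largest gap before another hexamer were likewise at the ends of the range. On the plus strand of chromosome 14, a site from 58445770 to 58445827 had a CATTAA cluster 2 nt downstream, and on the plus strand of chromosome 10 a site from 126749972 to 126750000 had an AAAAAA cluster 1994 nt downstream. The widest upstream ATTAAA cluster, 1088 nt, was found on chromosome 13 (minus strand, 22131818 to 22132905), with an AATACA site 266 nt downstream. The site with the most neighbours, on chromosome 1 (plus strand, 133827816 to 133827962), had 15 sites within 2000 nt downstream. Which genes these positions belong to was not analysed here, because no annotation of the mm9 build was used.

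The run richest in upstream ATTAAA sites held 28 sites in 7820 nt of chromosome 3 (plus strand, 33967167 to 33974986). It had 10 ATTAAA sites, 8 of them at 15 to 30 nt with a neighbour downstream, against 4 AATAAA sites and 2 with no hexamer. Its first ATTAAA site, from 33968256 to 33968282, was followed after 138 nt by an AATGAA site. A cluster of 36 nt from 33969236 to 33969271, with ATTAAA at 21 nt, was followed after 39 nt by a 2 nt wide one listed with ATTAAA at 89 nt. The run ended in a pair of AATAAA sites 69 nt apart, of which the last had its hexamer listed at 98 nt. By the criterion for close pairs given above, the sites of each of these close pairs could share the same hexamer copy.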

How the data were processed

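The authors deposited 1 catalogue for the series, whose positions in nt, strands, and the name and distance of each hexamer were used as given, per the file headers. The submitters' processing notes name Trimmomatic, STAR, bedtools and mm9, with no versions. The sources used here give no filter against priming inside A-rich sequence, and any false ends the authors kept remain in. The 80 mitochondrial clusters were left out. Starts were taken as counted from 0 and are printed counted from 1.

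Sites and comparisons were chosen with earlier results of these data known. For each comparison the mean per autosome was formed in both sets, and differences were tested with 100000 sign flips (seed 1, smallest p 1e-05). Benjamini-Hochberg adjustment ran over 14 comparisons, and separately over 6 more chosen after the values had been seen. Site pairs named by position are, for each class of downstream signal, those with the smallest and largest gap, the sites at the limit, the widest, the one with most sites downstream and the run with most members. Downstream hexamers are named where among the 10 most frequent, and those of single pairs as listed. Neighbour search and test were tested on simulated data. Calculations ran in Python 3.11.15 with pandas 2.3.3, numpy 2.4.6 and scipy 1.17.1, and figures were drawn with matplotlib 3.10.9.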

Additional observations from a re-analysis of the deposited data

How the results depend on the processing

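The 20 comparisons were repeated under up to 11 of 13 other settings each: neighbour limits of 1000 and 5000 nt, hexamer distances of 10 to 35 and 18 to 25 nt, clusters wider than 1 nt or no wider than 50 nt, either strand alone, 1 site of a class per run (most downstream or, added after the data had been seen, most upstream), the other treatment of gaps up to 100 nt, and 200 nt to the opposite strand. In 15 of the 20, every setting run kept the direction and the side of the threshold. The share of AATAAA downstream of ATTAAA against AATAAA sites turned to 5.10 percentage points with the most downstream site per run and was otherwise -11.1 to -3.59. That of ATTAAA turned to -7.53 there, and passed the threshold at 1.18 with 5000 nt, 1.20 with 10 to 35 nt and 8.74 over all gaps. The hexamer distance lost the threshold at 0.0187 nt with 5000 nt, 0.101 on the minus strand, 0.0742 with the most downstream and 0.0615 with the most upstream site per run. The gap lost it at -0.068 log2 on the minus strand, and the width against the downstream site at 0.032 log2 without clusters of 1 nt. Except where the text says so, the cause was not tested. No paired analysis was possible because the catalogue holds no value per library. Depth per library is unknown, so how it limits these values cannot be given.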

Other observations

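Where no hexamer was listed downstream, upstream ATTAAA clusters were widest, with a median of 15 nt against 10 nt before AATAAA. Their upper quartiles were 29 and 19 nt. Widths also followed the gap, from a median of 17 nt at gaps up to 50 nt, through 12 nt at 101 to 200 nt, to 9 nt at 1001 to 2000 nt. The downstream sites had medians of 16, 12 and 9 nt in the same ranges, so both sites of a pair were narrower at longer gaps.

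The neighbours upstream of ATTAAA sites differed with what lay downstream. At gaps over 100 nt, of the 4290 upstream neighbours of upstream ATTAAA sites 32.1% had AATAAA (interval 30.8 to 33.6%) and 12.4% no hexamer (interval 11.5 to 13.4%). Of the 3157 upstream neighbours of ATTAAA sites without a downstream site, 42.6% had AATAAA (interval 40.9 to 44.3%) and 9.0% none (interval 8.05 to 10.0%). These shares were not compared over autosomes.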
